A study of Mus musculus with 14 samples.

Results

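The Dlk1-Dio3 domain is an imprinted stretch of mouse chromosome 12 that holds a large cluster of miRNAs, and 57 of the 566 mouse miRNA probes on the panel were examined here as members of it. They are all rows whose miRNA number is among 46 numbers that lie between Dlk1 and Dio3, and each of the 46 had at least 1 row. The miRNAs of the same domain named miR-376, miR-136, miR-377 and miR-539 were kept apart and are used for comparison only. miRNAs were counted with the NanoString nCounter mouse panel in plasma extracellular vesicles (EVs), membrane-bound particles that cells release into blood and that carry RNA and protein. The 14 samples were 4 from sham mice, 5 from mice given 2 Gy of whole-body irradiation (WBIR) and 5 from mice given 9 Gy, and the EVs of irradiated mice were taken 3 days after exposure. Per the study's methods the mice were female C57BL/6J animals of 6 to 8 weeks, irradiated with a cesium source, and no transgene or further treatment is named for these groups. The labels number the samples within each group without saying that each number is a separate mouse, so the p-values measure the spread between these samples, which may be technical. The question addressed was whether these miRNAs changed in plasma EVs after WBIR, and whether they did so together with the cluster miRNAs that were kept apart.

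At the domain, protein genes such as Dlk1, Rtl1 and Dio3 are read from the paternal chromosome and long non-coding RNAs such as Meg3, Rian and Mirg from the maternal one. The miRNAs are cut from the maternal transcripts, many of them from shared precursors. They are known for high levels in the embryo, the placenta and the brain. miR-127, miR-431, miR-433, miR-434 and miR-136 are encoded antisense to Rtl1 and can cleave its mRNA, and miR-134 is known for control of Limk1 in dendrites.

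All 57 probes matched a miRNA between Dlk1 and Dio3 in the RefSeq tables of assembly GRCm38.p6, and together they came from 46 hairpins. The part from Dlk1 to miR-370 held 19 of the probes and the part from miR-379 to miR-410 held 38. The sequences of the miRNAs on which the results turn are given 5′ to 3′ from RefSeq, with the seed (bases 2 to 8, which pair with target mRNAs) in capitals. miR-668 passed the test in 1 comparison, miR-544 had the largest positive difference of the 15 tested members in the comparisons with sham, and miR-323-3p and both arms of miR-337 had the highest mean counts. The probes for miR-668 and miR-544 carry no arm in their names, so both arms are shown.
mmu-miR-668-5p: gUAAGUGUgccucgggugagcaug
mmu-miR-668-3p: uGUCACUCggcucggcccacuacc
mmu-miR-544-5p: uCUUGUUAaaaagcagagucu
mmu-miR-544-3p: aUUCUGCAuuuuuagcaagcuc
mmu-miR-323-3p: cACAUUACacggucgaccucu
mmu-miR-337-5p: cGGCGUCAugcaggaguugauu
mmu-miR-337-3p: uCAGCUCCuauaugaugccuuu
All of these lie on the plus strand. The arms of miR-668 are at chr12:109734733-109734756 and chr12:109734774-109734797, those of miR-544 at chr12:109729335-109729355 and chr12:109729371-109729392, and miR-323-3p is at chr12:109712558-109712578. The arms of miR-337 lie further towards Dlk1, at chr12:109585818-109585839 for 5p and chr12:109585850-109585871 for 3p.

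A second set shows neighbours on the chromosome, a member beside a miRNA that was kept apart. The hairpins of miR-432 and miR-136 are 296 bases apart, and those of miR-300 and miR-376a are 464 bases apart. The panel names of miR-136, miR-300 and miR-376a give no arm.
mmu-miR-432: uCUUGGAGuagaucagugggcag
mmu-miR-136-5p: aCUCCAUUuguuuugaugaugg
mmu-miR-136-3p: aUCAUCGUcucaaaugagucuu
mmu-miR-300-5p: uUGAAGAGagguuauccuuugu
mmu-miR-300-3p: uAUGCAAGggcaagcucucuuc
mmu-miR-376a-5p: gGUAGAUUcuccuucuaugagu
mmu-miR-376a-3p: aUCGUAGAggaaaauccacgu
Over the 98 mature sequences that matched the members and the miRNAs kept apart there were 91 different seeds. Of the 7 seeds found in more than 1 sequence, 6 were shared between members, such as that of miR-379-5p and miR-1193-5p. The remaining shared seed belonged to miR-376b-5p and miR-376c-5p. Among these 98 sequences no member shared a seed with miR-376, miR-136, miR-377 or miR-539, of which miR-376c and miR-539 were compared by their 5p arms only.

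Counts over all miRNA probes totalled 4781 to 6926 in sham, 8019 to 10455 after 2 Gy and 11518 to 20150 after 9 Gy. The ligation positive controls, which report the yield of the tagging step, were 136 to 634 counts in sham, 1940 to 3120 after 2 Gy and 2230 to 3460 after 9 Gy. This gap coincides with the groups, so the yield of ligation and irradiation cannot be told apart in any comparison with sham. Hybridisation positive controls were 987 to 1180, 822 to 1110 and 915 to 1160 counts in the same order, which overlap. Blood cell and liver miRNAs were read with 10 probes, and some of them moved with the groups. The 3 probes for the blood cell miRNAs miR-223 and miR-142 summed to 859 to 1045 counts in sham. This was above the 499 to 655 counts after 2 Gy and the 542 to 780 after 9 Gy, and nearly all of the counts came from miR-142-5p. The others, miR-223 and miR-142-3p, did not pass 22 counts and overlapped between the groups. Their means were 8.75, 12.8 and 13.4 for miR-223 and 7.0, 5.8 and 7.6 for miR-142-3p. The 4 red cell probes summed to 43 to 99, 45 to 350 and 49 to 219 counts in the same order, which overlap, although miR-16 among them had means of 14.25, 45.0 and 36.4. The 2 lymphocyte probes summed to 8 to 15, 10 to 14 and 10 to 317 counts, and miR-155 was 1 in every sample of sham and 2 Gy and reached 307 after 9 Gy. miR-122 of liver ran from 1 to 6 counts, where 1 was the lowest value of the whole table.

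The members were counted near the background in all 3 groups. Their mean count per probe was 7.89 ± 1.20 for sham, 6.62 ± 0.835 after 2 Gy and 8.64 ± 1.13 after 9 Gy (SD over 4, 5 and 5 samples). The negative controls, probes with no target in the sample, had means of 7.64 ± 1.02, 6.97 ± 0.396 and 7.57 ± 0.782 counts over 7 of the 8 controls. The control NEG_C, which is far above the other 7 in every group, was left out of these means. Set against the highest group mean of a single control, which was 11.75 counts in sham, 9.6 after 2 Gy and 12.0 after 9 Gy, 9, 10 and 12 of the 57 members had a higher mean. These are 15.8%, 17.5% and 21.1% of the members, beside 16.9%, 25.0% and 25.9% of the other 509 mouse miRNA probes. The members thus exceeded the controls in a share that was no larger than that of the rest of the panel.

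Within single samples, 5.75 ± 2.87 members in sham, 6.4 ± 3.29 after 2 Gy and 9.8 ± 4.76 after 9 Gy lay above the median negative control plus 2 SD (SD, n = 4, 5 and 5). The numbers ran from 2 to 8 in sham, from 1 to 9 after 2 Gy and from 4 to 17 after 9 Gy, so the groups overlapped. With NEG_C in the limit, no member lay above it in any of the 14 samples. The lowest reading was miR-543, which was 1 in all 14 samples. Of the 798 values of the members 41 were 1, and 14 of these came from miR-543. The lowest value of the whole table was 1, and the sources used here do not give whether this is a floor that replaced 0, so these readings may stand for 0.

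The 57 probes summed to 449.5 ± 68.2 counts for sham, 377.2 ± 47.6 after 2 Gy and 492 ± 64.1 after 9 Gy (SD over 4, 5 and 5 samples). Single samples ran from 353 to 513 in sham, from 331 to 434 after 2 Gy and from 402 to 568 after 9 Gy, and each group overlapped the others. As a share of all miRNA counts the sum was 7.44% in sham, 4.19% after 2 Gy and 3.53% after 9 Gy. The 6 probes of the domain that were kept apart took 1.37%, 39.5% and 51.4% of the counts in the same groups. With miR-376a and miR-136 left out of the total, the members held 7.48% ± 0.241 in sham, 6.73% ± 0.572 after 2 Gy and 7.06% ± 0.457 after 9 Gy (SD). The lower share after irradiation thus went mostly with the counts of miR-376a and miR-136 in the total.

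**Figure D1:**
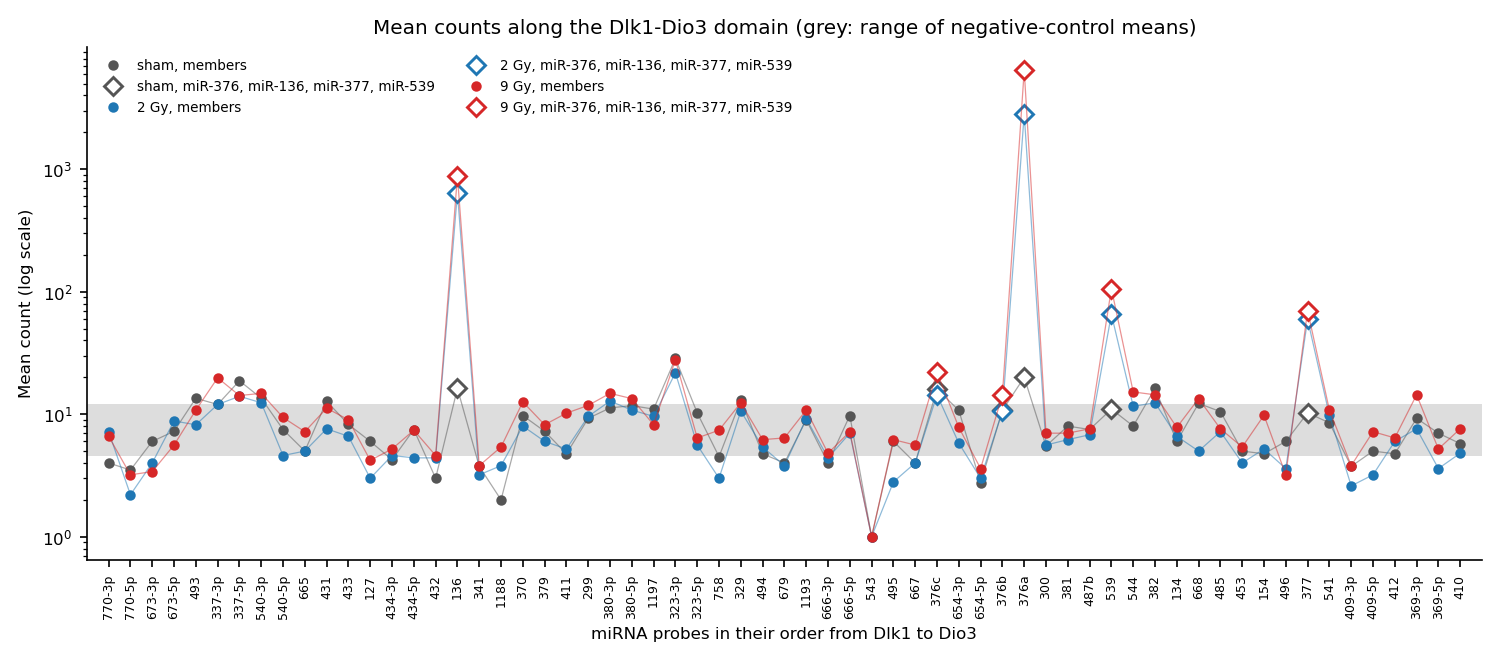
Mean count of each probe on a log axis, in the order of the miRNAs from Dlk1 to Dio3, for sham (grey, n = 4), 2 Gy (blue, n = 5) and 9 Gy (red, n = 5). Filled circles are the 57 members and open diamonds the 6 probes kept apart, and the grey band spans the group means of the negative controls other than NEG_C (4.6 to 12.0 counts). miR-136, miR-376a, miR-539 and miR-377 stand far above the band at both doses. Of the members between them miR-323-3p (means of 28.5, 21.8 and 27.8 counts) and miR-382 (16.25, 12.4 and 14.4) stand above the band in all 3 groups.

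The position of a member beside an abundant miRNA did not go with a high count. miR-136 had 10 to 20 counts in sham, 558 to 795 after 2 Gy and 798 to 987 after 9 Gy. In miR-432, its neighbour, the counts were 3, 4, 3 and 2 in sham, 5, 2, 8, 2 and 5 after 2 Gy, and 5, 4, 3, 6 and 5 after 9 Gy. Every one of these readings of miR-432 lay within or under the range of the negative controls, and the groups overlapped. miR-376a had 10 to 31 counts in sham, 1789 to 3703 after 2 Gy and 4100 to 10763 after 9 Gy. miR-300 on its Dio3 side had 6, 5, 6 and 5 counts in sham, 9, 8, 4, 3 and 4 after 2 Gy, and 3, 7, 6, 9 and 10 after 9 Gy. No group of miR-300 stood apart from the others, although its hairpin is the nearest member hairpin to that of miR-376a. Of the members, 11 probes lie within 2000 bases of a hairpin of miR-136, miR-376a, miR-539 or miR-377. Their counts did not pass 14 in sham, 15 after 2 Gy and 22 after 9 Gy, and the median of their group means was 7.5, 5.6 and 7.0. The highest of their means after irradiation were those of miR-544, at 11.6 after 2 Gy and 15.2 after 9 Gy, beside 8.0 in sham.

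By position, the 19 probes up to miR-370 averaged 7.80 counts in sham, 6.53 after 2 Gy and 8.34 after 9 Gy. The 38 probes from miR-379 to miR-410 averaged 7.93, 6.66 and 8.79 counts. Both parts were read in the same samples, and the difference between them was not tested.

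A mean of at least 10 counts over the 14 samples was required for testing, which 15 of the 57 members and 176 of the 599 miRNA probes reached. Of the 15, 6 lie in the part up to miR-370 (miR-493, miR-337-3p, miR-337-5p, miR-540-3p, miR-431 and miR-370). The other 9 lie in the part from miR-379 (miR-299, miR-380-3p, miR-380-5p, miR-323-3p, miR-329, miR-544, miR-382, miR-668 and miR-369-3p). The minimum was applied to the mean over all samples, and miR-668 was the member just inside it at 10.1 counts while miR-541 was just outside at 9.79. The 42 members under the minimum had group means of 1.0 to 11.0 counts, and their highest single value was the 22 counts of miR-541 in 1 sample after 9 Gy.

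miR-323-3p had the highest mean of the members at 25.9 counts. It read 32, 34, 29 and 19 in sham, 23, 15, 30, 18 and 23 after 2 Gy, and 20, 27, 32, 40 and 20 after 9 Gy. All 14 readings lay above the highest group mean of a negative control, and the 3 groups overlapped over most of their range. miR-337-5p read 21, 20, 19 and 15 in sham, 17, 12, 15, 13 and 13 after 2 Gy, and 12, 18, 18, 12 and 11 after 9 Gy. miR-337-3p, cut from the other arm of the same hairpin, read 15, 13, 8 and 12 in sham, 8, 14, 13, 13 and 12 after 2 Gy, and 11, 9, 18, 34 and 27 after 9 Gy. For miR-337-3p the samples with 18, 34 and 27 counts after 9 Gy were the only irradiated ones above the range of sham, while miR-337-5p had no irradiated sample above its sham range. Counts also depend on how well each probe captures its target, so the order of the means describes these readings and not the amounts of the miRNAs.

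**Figure D2:**
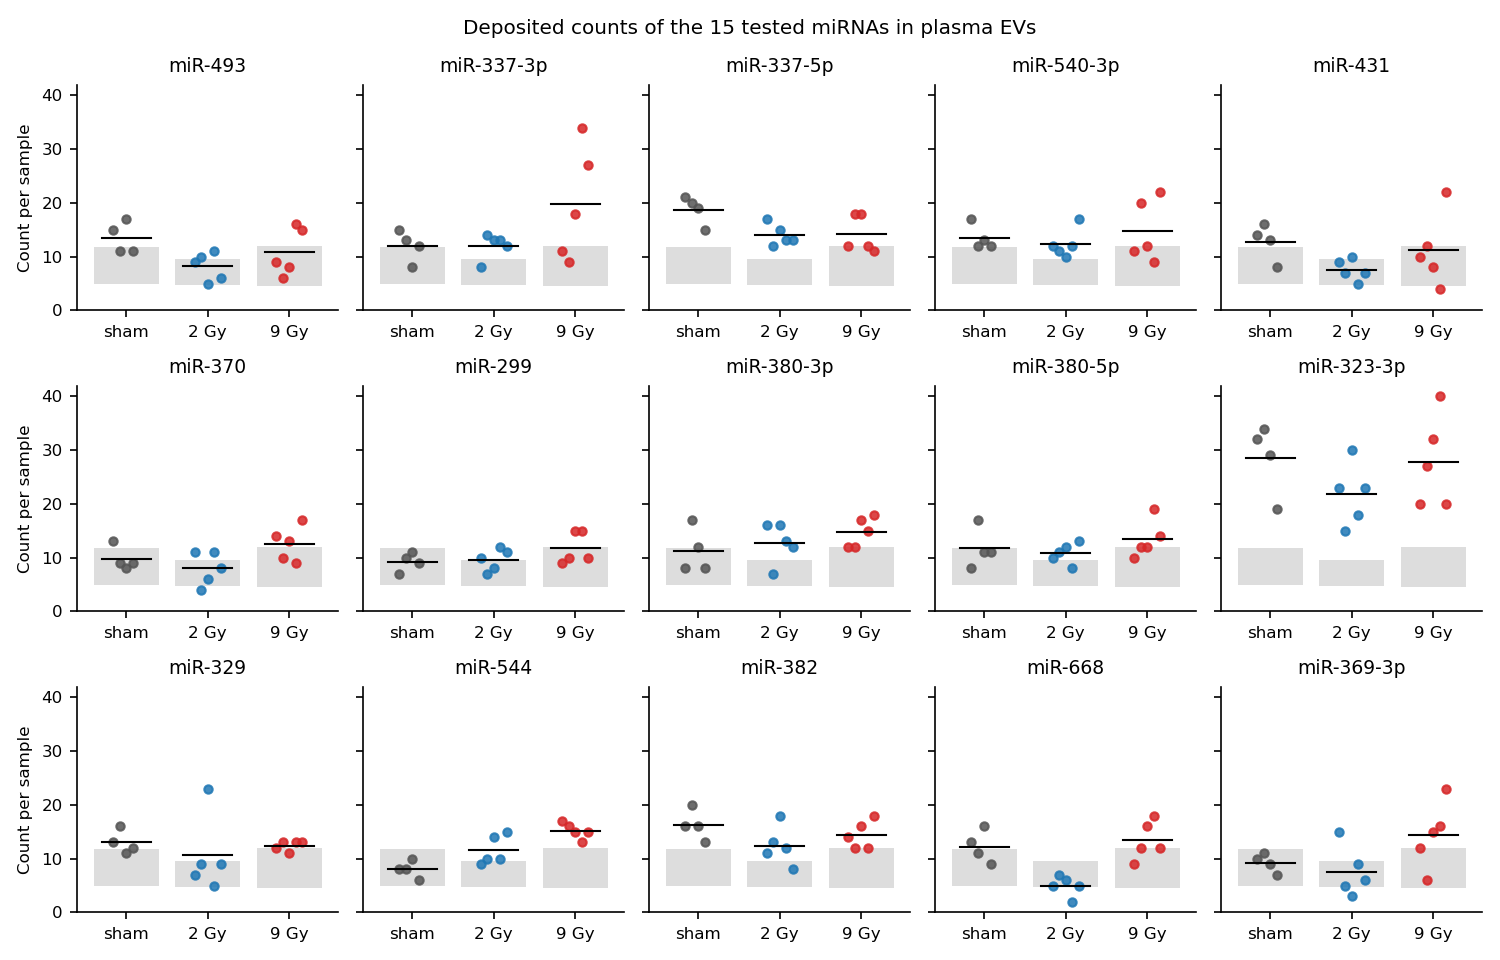
Deposited counts of the 15 tested members in each sample, 1 panel per miRNA in order from Dlk1 to Dio3, on a linear axis from 0. Points are samples of sham (n = 4), 2 Gy (n = 5) and 9 Gy (n = 5), the black lines are group means and the grey boxes span the group means of the negative controls other than NEG_C. miR-323-3p sits above the boxes in every sample, miR-668 lies in or under the box after 2 Gy, and miR-544 after 9 Gy lies above its sham samples.

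In the comparison of 2 Gy with sham, 1 of the 15 tested members, miR-668, passed the test, at counts that did not exceed the background limit in any sample of either group. The log2 fold change of miR-668 was -1.14 ± 0.35 (SE, 95% confidence interval -1.84 to -0.43, adjusted p = 0.0164 by edgeR's quasi-likelihood test with Benjamini-Hochberg adjustment over the 176 probes). Its counts were 13, 11, 16 and 9 in sham and 5, 7, 6, 2 and 5 after 2 Gy, so all 5 samples after 2 Gy lay under all 4 of sham. Scaled for library size, the mean was 12.4 ± 2.45 in sham (SD, n = 4) and 5.57 ± 2.24 after 2 Gy (SD, n = 5). Set against the limit of each sample (median negative control plus 2 SD, 11.0 to 18.7 counts in sham and 10.5 to 14.4 after 2 Gy), miR-668 lay above it in 0 of 4 samples of sham and 0 of 5 after 2 Gy. Its unscaled sham mean of 12.25 counts lay just above the highest mean of a single negative control (11.75), and its mean of 5.0 after 2 Gy lay inside the range of the controls there (4.8 to 9.6). The fold change therefore compares readings at background and gives no size for a change of the miRNA. Fewer vesicles and less of a miRNA per vesicle cannot be told apart from these counts alone. The study's methods give a fixed amount of RNA for the assay, and its separate measurement of vesicle number is not used here. The call was lost without sham replicate 3 (log2 -0.98, adjusted p = 0.115 by edgeR) and without 2 Gy replicate 4 (log2 -0.96, adjusted p = 0.0756 by edgeR). It was also lost with limma-voom (log2 -1.15, adjusted p = 0.247), after subtraction of the median negative control (log2 -1.74, adjusted p = 0.139 by edgeR) and with the ligation controls as a covariate (log2 -1.06, adjusted p = 0.914 by edgeR), which called 17, 23 and 3 of all 176 probes. The marker miR-142-5p was also lower after 2 Gy (479 to 644 counts) than in sham (844 to 1029), while the other 9 marker probes overlapped between these groups, and the part of the markers in the difference of miR-668 was not tested.

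Over all 176 tested probes 14.8% passed the adjusted threshold in this comparison, beside 6.67% of the tested members (1 of 15). At an unadjusted p under 0.05, 19.9% of all tested probes and 13.3% of the members passed, the latter being miR-668 and miR-544. Counts did not overlap between the groups for 11.9% of all tested probes and for miR-668 alone among the members. After scaling for library size 14.8% of all tested probes did not overlap, and of the members miR-668 and miR-337-5p, the latter at 19.0 ± 0.835 scaled counts in sham and 15.5 ± 1.42 after 2 Gy (SD). The members were therefore not called more often than the panel. The median log2 fold change of the members was -0.14 and that of all tested probes 0.05, with 6 members higher and 9 lower. Every 95% confidence interval of a member ended at or under 1.26, the upper end of miR-544. On the same log2 scale miR-376a rose by 7.30, miR-136 by 5.44, miR-539 by 2.69 and miR-377 by 2.65 (adjusted p at most 1.44e-08 by edgeR). Counts in this fit were not corrected for background, so 1.26 is no upper bound on a change. After subtraction of the median negative control miR-544 was at log2 2.00, not past the threshold.

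The mature arms of miR-544 lie 1132 bases from the hairpin of miR-539. This miRNA read 8, 8, 10 and 6 in sham and 9, 10, 14, 10 and 15 after 2 Gy, with a log2 fold change of 0.67 ± 0.30 (SE, unadjusted p = 0.0304, adjusted p = 0.172 by edgeR). The 3 lowest samples after 2 Gy lay inside the range of sham. miR-431, encoded antisense to Rtl1, had a log2 fold change of -0.60 ± 0.33 (SE, adjusted p = 0.313 by edgeR), and miR-493 had -0.57 ± 0.31 (SE, adjusted p = 0.313 by edgeR). The remaining 11 tested members lay between -0.28 and 0.32 on the log2 scale, with a lowest adjusted p of 0.655 by edgeR.

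**Figure D3:**
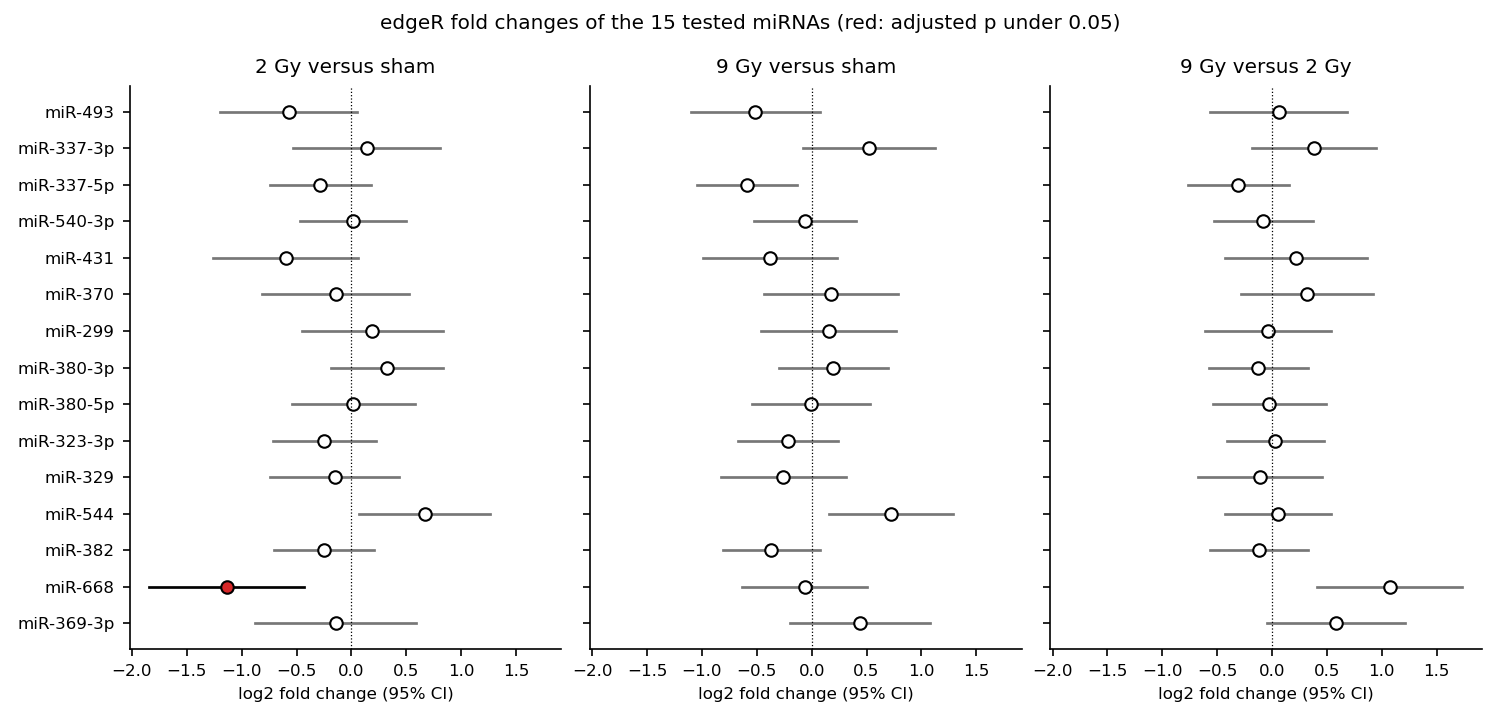
Log2 fold changes of the 15 tested members (points) with 95% confidence intervals (lines) from edgeR for 2 Gy versus sham, 9 Gy versus sham and 9 Gy versus 2 Gy, in order from Dlk1 to Dio3. The filled red point, miR-668 for 2 Gy versus sham (-1.14), is the only member with an adjusted p under 0.05.

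In the comparison of 9 Gy with sham, which uses the same 4 sham samples, none of the 15 tested members passed the adjusted threshold in edgeR. Over all tested probes 17% passed it. At an unadjusted p under 0.05 there were 2 members (13.3%), beside 25% of all tested probes. By limma-voom 0 members and 21 of all 176 probes passed. DESeq2 called 0 members and 19 probes, but gave no adjusted p for 10 of the 15 members, miR-544 and miR-668 among them. The median log2 fold change was -0.06 for the members and 0.01 for all tested probes, with 6 members higher and 9 lower.

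The smallest p among the members belonged to miR-337-5p, whose counts are given with those of miR-337-3p. Its log2 fold change was -0.59 ± 0.23 (SE, 95% confidence interval -1.05 to -0.13, adjusted p = 0.0680 by edgeR), and its unscaled counts of 18 in 2 samples after 9 Gy lay inside the range of sham. Scaled for library size the groups did not overlap, at 19.0 ± 0.835 in sham (n = 4) and 12.6 ± 3.37 after 9 Gy (SD, n = 5), as in 15.9% of all tested probes. This miRNA passed the threshold without 9 Gy replicate 2 (log2 -0.68, adjusted p = 0.0423 by edgeR) and without 9 Gy replicate 3 (log2 -0.70, adjusted p = 0.0332 by edgeR). miR-544 followed, with 8, 8, 10 and 6 counts in sham and 17, 16, 15, 13 and 15 after 9 Gy. All 5 samples after 9 Gy lay above all 4 of sham, and such a separation of unscaled counts was found in 15.9% of all tested probes and in no other member. Of the markers, miR-142-5p was lower after 9 Gy (510 to 755 counts) than in sham (844 to 1029) and miR-16 of red cells was higher (22 to 51 against 9 to 19), both without overlap, and the part of the markers in the difference of miR-544 was not tested. The log2 fold change of miR-544 was 0.72 ± 0.28 (SE, 95% confidence interval 0.16 to 1.29, adjusted p = 0.0684 by edgeR). Its counts lay above the limit of the sample in 0 of 4 samples of sham and 4 of 5 after 9 Gy, so the sham side of this fold change is at background. The scaled mean after 9 Gy was 13.6 ± 2.64 counts (SD, n = 5). The third was miR-493, which read 15, 11, 17 and 11 in sham and 9, 6, 8, 16 and 15 after 9 Gy. The groups overlapped, at a log2 fold change of -0.51 ± 0.29 (SE, adjusted p = 0.305 by edgeR).

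miR-337-3p had a log2 fold change of 0.52 ± 0.29 (SE, adjusted p = 0.305 by edgeR). Of the left-out samples, only the omission of 9 Gy replicate 2, at 9 counts, took it past the threshold (log2 0.71, adjusted p = 0.0445 by edgeR). The other 11 tested members lay between -0.38 and 0.44. No member had a 95% confidence interval that reached above 1.29. In the same fit miR-376a rose by 8.13, miR-136 by 5.57, miR-539 by 3.04 and miR-377 by 2.56 on the log2 scale (adjusted p at most 4.34e-09 by edgeR). Counts in this fit were not corrected for background, so 1.29 is no upper bound on a change. After subtraction of the median negative control miR-544 was at log2 2.66 (adjusted p = 0.00752 by edgeR). miR-376b and miR-376c, which share the miR-376 family name and lie beside miR-376a, had log2 fold changes of 0.22 ± 0.31 and 0.27 ± 0.27 (SE) and did not pass the test.

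Between 9 Gy and 2 Gy no tested member and 0% of all tested probes passed the adjusted threshold in edgeR. By limma-voom and by DESeq2 0 members and 1 probe of the panel passed. The exact permutation test called none of the 176 probes in any of the 3 comparisons, miR-376a and miR-136 included, so it shows nothing about the members. The member with the smallest p was miR-668, with 9, 12, 16, 18 and 12 counts after 9 Gy and 5, 7, 6, 2 and 5 after 2 Gy. The groups did not overlap, which 5.68% of all tested probes showed, or 2.27% after scaling for library size, and no other member on either scale. Its log2 fold change was 1.07 ± 0.33 (SE, 95% confidence interval 0.41 to 1.73, unadjusted p = 0.00196, adjusted p = 0.125 by edgeR), and at an unadjusted p under 0.05 it was the single member among 11.4% of all tested probes. Of the 9 Gy samples of miR-668, 4 lay in the range of sham and the one of 18 counts above it, with a log2 fold change of -0.07 ± 0.28 between them (SE, adjusted p = 0.915 by edgeR). The 2 Gy group was thus the low group of miR-668 against both of the others, though only the difference from sham passed the test.

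miR-369-3p, from the Dio3 end of the domain, read 12, 6, 15, 16 and 23 after 9 Gy and 15, 5, 3, 9 and 6 after 2 Gy, with a log2 fold change of 0.58 ± 0.32 (SE, adjusted p = 0.538 by edgeR). miR-337-3p followed at 0.38 ± 0.28 (SE, adjusted p = 0.618 by edgeR). Both overlapped between the doses. The median log2 fold change was 0.03 for the members and 0.03 for all tested probes.

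When the count minimum was dropped and all 57 members were fitted with the 599 miRNA probes, miR-668 for 2 Gy versus sham remained the single member past the adjusted threshold, beside 25 of the 599 probes (4.17%). For 9 Gy versus sham 0 members and 29 probes (4.84%) passed, and between the doses 0 members and 0 probes. Among the 42 members under the minimum, 3 had an unadjusted p under 0.05 for 2 Gy versus sham (miR-770-3p, miR-654-3p and miR-495). At 9 Gy versus sham there were 6 (miR-496, miR-323-5p, miR-411, miR-1188, miR-673-3p and miR-154), and between the doses there were 3 (miR-673-5p, miR-758 and miR-409-5p). Over all 599 probes these unadjusted calls were 52 (8.68%), 81 (13.5%) and 42 (7.01%). The lowest adjusted p among the 42 was 0.338 for 2 Gy versus sham, 0.200 for 9 Gy versus sham and 0.294 between the doses by edgeR. Their log2 fold changes ran from -1.07 to 1.19. No detection limit was computed for these 42 probes, so the absence of a call gives no bound on a change in them.

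The ligation controls and the total counts differed between sham and irradiated samples, and the number of members called moved with the scaling. Scaling by the total count, of which the 6 probes kept apart take up to 59.8% in a sample, put the median of all tested probes at -0.66 for 2 Gy and -1.02 for 9 Gy versus sham. It called 11 and 12 of the 15 members, each lower, beside 60.2% and 82.4% of all tested probes. Scaling to the ligation controls put the same medians at -3.13 and -3.05 and called all 15 members lower at both doses, beside 96.0% and 94.9% of all tested probes. Taken relative to those medians, miR-668 after 2 Gy was at -1.19 with total count and -1.18 with the ligation controls, beside -1.19 in the fit as reported. miR-544 after 9 Gy was at 0.72 and 0.77, beside 0.72. miR-544 for 9 Gy versus sham passed the threshold, as higher, with scaling to the hybridisation controls (log2 0.93, adjusted p = 0.0123 by edgeR) and after subtraction of the median negative control (log2 2.66, adjusted p = 0.00752 by edgeR). Under ligation scaling without the median taken off it was reversed (log2 -2.28).

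**Figure D4:**
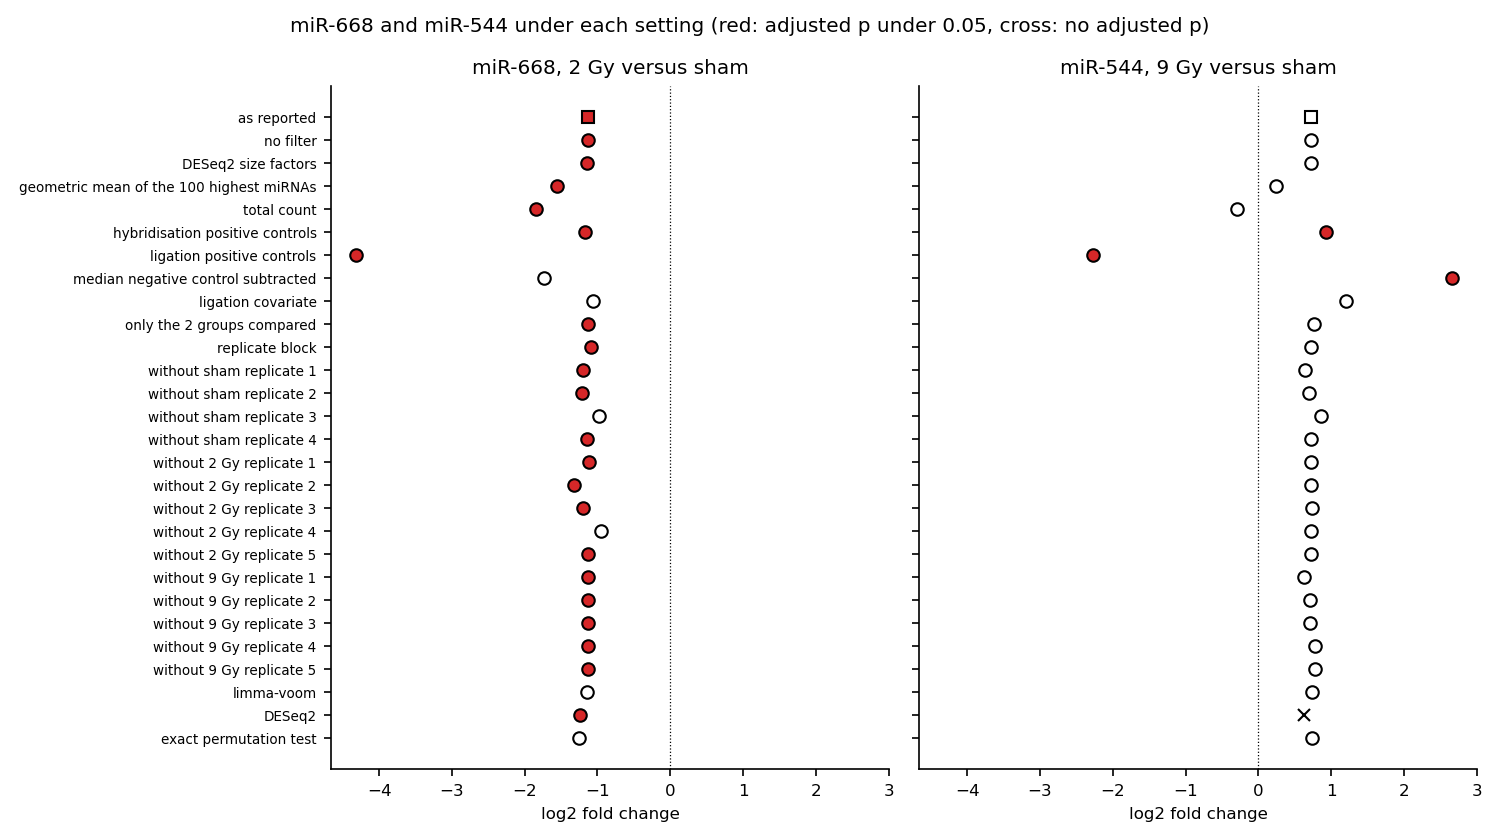
Log2 fold change of miR-668 for 2 Gy versus sham and of miR-544 for 9 Gy versus sham under each setting tried, with filled red symbols for an adjusted p under 0.05, a square for the fit as reported and a cross where DESeq2 gave no adjusted p. miR-668 lies left of 0 under every setting, from -4.31 to -0.96, and miR-544 changes side under total count and ligation scaling.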

How the data were processed

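The deposited values are whole-number counts of barcodes per probe, which the authors obtained with the nCounter mouse miRNA panel and handled in nSolver. Control probes differed between samples, so the values were not scaled to these controls. Whether another scaling preceded deposit is not given in the sources used here and was not tested. No alignment is involved. The members and the lists were chosen with earlier results of these data known. All 626 rows were read, and the 599 miRNA probes (566 mouse, 33 viral) made up the library size (4781 to 20150 counts). Normalisation factors (TMM) were set over these 599 probes. Probes with a mean of at least 10 counts over the 14 samples (176) were fitted in edgeR 4.0.16 (R 4.3.3) by the robust quasi-likelihood method with all 3 groups and no block. Tests were two-sided, with Benjamini-Hochberg adjustment over the 176 probes and a threshold of 0.05. Alternatives used limma 3.58.1 and DESeq2 1.42.0, other scalings, filters and left-out samples. The scripts were tested on simulated data. Every tested member is named. Counts in each sample are given for members past the threshold, otherwise for the 3 with the smallest p, and for the 3 with the highest mean.

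Mature sequences and positions are from the RefSeq tables of GRCm38.p6, which the 24 probe names that include a mature name matched directly. Another 31 probes matched both arms of their hairpin and 2 matched the 1 arm listed. For miR-544 and miR-666 the position is the span of the mature arms. Within groups, each of the 26 sample pairs differed beyond counting noise when all 626 rows were used. With the miRNA probes alone 7 pairs did not, 5 of them among the 6 sham pairs. Their control probes differ, which does not show that the RNA differed. They were kept as separate samples because the labels list them separately. No column was left unused. The exact permutation test per probe cannot go below p = 0.00794 before adjustment and called none of the 176 probes. Intervals cover the spread between these samples only.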

Additional observations from a re-analysis of the deposited data

Results flagged for a closer look

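In 2 of the 15 tested members a single sample at 2 Gy stood apart from the other 4 by Dixon's test. miR-329, which lies in the part from miR-379 to miR-410, read 7, 9, 23, 5 and 9 counts at 2 Gy, and the gap from 23 to the next value was 0.778 of the group's range. miR-540-3p read 12, 11, 10, 12 and 17, and the gap from 17 was 0.714 of the range. The 23 counts of miR-329 came from 2 Gy replicate 3 and the 17 counts of miR-540-3p from replicate 5. Chance gives such a flag in about 1 in 20 groups, and 2 of 51 groups checked had one. The check did not cover all members under the count minimum. Some of those also had a sample far from the rest, such as miR-453 at 2 Gy (7, 3, 3, 4 and 3 counts) and miR-541 at 9 Gy (7, 22, 8, 8 and 9).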

How the results depend on the processing

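At 2 Gy versus sham the number of members past the threshold was 1. It was 6 with the geometric mean of the 100 highest miRNAs, 11 with total count, 15 with ligation controls and 2 at an unadjusted p under 0.05, where 49, 106, 169 and 35 of all 176 probes were called. It was 0 with the median negative control subtracted (23 of all probes), with the ligation control as covariate (3), with limma-voom (17) and with the exact permutation test (0, a test that called no probe in any comparison). Leaving out a sample gave 0 to 1 (20 to 26 of all probes). At 9 Gy versus sham it was 0, against 6, 12 and 15 with the same 3 scalings (75, 145 and 167 of all probes), 1 with hybridisation controls (33), 1 after subtraction (34) and 2 unadjusted (44). Leaving out a sample gave 0 to 2 (26 to 32). Between the doses it was 0, 1 with hybridisation controls (miR-668, 12 of all probes) and 1 unadjusted (20). A minimum of 30 counts left no member, so that setting gave no value.

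Over 1215 values of single members under the alternatives, 1141 kept direction or stayed short of the threshold, 51 passed it newly, 6 lost it and 17 reversed. In 125 of the 1141 the sign changed without passing the threshold. The 6 were miR-668 at 2 Gy versus sham, at -0.96 to -1.74, 1 of them under the exact permutation test. The 17 arose with total count (5) or ligation controls (12), settings that move the median of all probes. Relative to that median all 17 had the sign they have relative to the median of the fit as reported. For 4 of them, miR-380-5p and miR-540-3p at 2 Gy under both settings, that sign is not the sign of the reported value itself. With ligation controls at 2 Gy they were miR-299 at -3.05, miR-337-3p at -3.12, miR-380-3p at -2.98, miR-380-5p at -3.33, miR-540-3p at -3.20 and miR-544 at -2.45. At 9 Gy they were miR-299 at -2.93, miR-337-3p at -2.63, miR-369-3p at -2.64, miR-370 at -2.88, miR-380-3p at -2.97 and miR-544 at -2.28. With total count they were miR-380-5p and miR-540-3p at -0.70 each at 2 Gy, and miR-299 at -0.87, miR-370 at -0.86 and miR-380-3p at -0.83 at 9 Gy.

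With the limit from all 8 negative controls, 0 members lay above background in each group. After subtraction of the median negative control the summed count was 135 in sham, 89.6 at 2 Gy and 177 at 9 Gy. With the replicate number as a block, 1, 0 and 0 members passed at 2 Gy versus sham, 9 Gy versus sham and 9 Gy versus 2 Gy, the same numbers as without it, beside 24, 29 and 3 of all 176 probes (26, 30 and 0 without it). Same-numbered samples had a correlation over 0.1 in 1 of 13 pairs, so the numbers were not taken as a pairing. The ligation covariate extrapolates across a range the groups do not share. What was read near 10 counts is limited by counting error, and no detection limit was computed.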
